A study of Mus musculus with 4 samples.

Results

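The genes described here are 10 genes of the NRF2 and glutathione-thioredoxin defence system: Nfe2l2, Keap1, Nqo1, Gclc, Gclm, Gsr, Txnrd1, Srxn1, Prdx1 and G6pdx. They were chosen by name, and each non-control probe whose array annotation gives one of these names was taken. This gave 12 probes for the 10 genes, out of 29477 probes naming 21884 genes on the array, with 2 probes each for Gsr and Prdx1. All 12 probes were well above the local background on all 4 arrays.

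The series measured messenger RNA in mouse bone marrow-derived macrophages (BMDMs) on 4 one-colour Agilent arrays, 1 array for each condition. Bone marrow of C57BL/6J mice aged 10 weeks was cultured for 6 days in L929 cell supernatant, which supplies macrophage colony-stimulating factor, and then stimulated for 2 days. Wild-type M1 macrophages received 20 ng/ml of IFN-γ with 100 ng/ml of LPS, and wild-type M2 macrophages received 50 ng/ml of IL-4. The Lamtor1-deficient array held cells labelled p18 (2400001E08Rik) -/- given the same IL-4 dose, and the Torin1 array held wild-type cells given that IL-4 dose together with 250 nM of Torin1, an inhibitor of the mTOR kinase. Lamtor1, also called p18, is a lysosomal scaffold on which mTOR complex 1 is activated. By the study's methods the gene was removed with a LysM-Cre transgene, which acts in myeloid cells, from a floxed allele, and the methods' control animals for it carried the floxed allele without Cre. The comparisons with the M2 array ask how loss of Lamtor1, inhibition of mTOR and the M1 stimulus each changed IL-4-stimulated cells, and Torin1 was also set directly against Lamtor1 loss.

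No condition was replicated, so none of the differences below has a test or a p-value, and the spread between cultures or animals is unknown. The 3 comparisons with M2 share that single array. A technical yardstick came from the 399 probes printed 8 or more times within each array, where they were well above background. The SD of log2 signal over a probe's spots was taken within each array, and the median over probes was kept. The medians of the 2 arrays compared were combined as the root of the sum of their squares. This technical SD was 0.09 for Lamtor1-deficient over M2, 0.09 for Torin1 over M2, 0.10 for M1 over M2 and 0.09 for Torin1 over Lamtor1-deficient. This yardstick covers the spotting and scanning within arrays and nothing else. Signals are given as percent of each array's own 75th percentile, a scale on which 1 probe can be followed across arrays but on which different genes cannot be ranked.

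The array state was as follows. The 75th percentile of the processed signal was 286.8 in M1, 594.8 in M2, 536.2 with Lamtor1 loss and 470.0 with Torin1, and between 50.9% and 55.4% of probes were well above background. The targeted gene, listed as 2400001E08Rik, was 42.7-fold lower on the Lamtor1-deficient array than on M2. The 8 macrophage markers examined were well above background on all 4 arrays, though not at one level: Fcgr1 was 31.1-fold lower with Lamtor1 loss and 24.4-fold lower with Torin1 than in M2, Emr1 5.95-fold and 7.02-fold lower, and Cd14 3.62-fold lower with Lamtor1 loss. Cd68 was 1.47-fold and 1.63-fold higher and Mertk 1.27-fold and 1.86-fold higher in the same 2 conditions, and Lyz2 was 1.63-fold higher with Lamtor1 loss. In all, 3 of the 8 lay above M2 with Lamtor1 loss and 5 with Torin1. Those 5 include Cd14, at a log2 ratio of 0.00078, and Itgam, at 1.11-fold by its brightest probe. The other Itgam probes were 3.38-fold and 7.04-fold lower with Torin1. Among 4 M2 markers, Arg1 was 64.6-fold lower with Lamtor1 loss and 141-fold lower with Torin1 than in M2, and Mrc1 2.68-fold and 6.25-fold lower. Chi3l3 was 1.17-fold and 1.16-fold higher. Retnla was 4.51-fold lower with Lamtor1 loss and not well above background on the M1 and Torin1 arrays. Of the M1 markers, Nos2 was 48.6-fold and 42.9-fold higher in the same 2 conditions, and Il6 at least 4.69-fold and 1.23-fold higher. Tnf was 3.67-fold and 1.52-fold lower. Il12b was not well above background on any array. In bulk RNA, fewer cells of a type and less RNA per cell cannot be told apart. Markers of other cells also moved with the conditions: the summed signal of 6 fibroblast markers was 1598% of the 75th percentile in M1, 4325% in M2, 5593% with Lamtor1 loss and 1530% with Torin1, and that of 5 neutrophil markers was 191.9%, 1172%, 81.5% and 687.8% in the same order. Within the fibroblast sum Dcn went the other way in M1, 5.86-fold higher than in M2 at 927.0%, while Col1a1, Col1a2 and Col3a1 were 14.0-fold, 5.28-fold and 10.2-fold lower, and it was 3.77-fold higher with Lamtor1 loss. A further neutrophil marker, Elane, is not in that sum because its spot was an outlier on the Torin1 array. It gave 5205% in M1, 1242% in M2 and 1859% with Lamtor1 loss, so that with it M1 would lie above M2. In the neutrophil sum, Mmp8 made up most of the signal with Torin1, at 652.3% of the 75th percentile, and in M1, at 147.6%. With Torin1 it was 5.55-fold higher than in M2, whereas the other 4 were lower, with log2 ratios of -4.05 for Camp, -6.59 for Ltf, -5.78 for Ngp and -2.44 for Mpo. All 6 fibroblast markers and all 5 summed neutrophil markers were well above background in M2, while Lum was not in the other 3 conditions, nor were Pdgfra, Ltf and Ngp in M1. Among the lymphocyte markers, Cd3e, Cd79a and Cd79b were well above background on all 4 arrays and Ms4a1 on none. Cd3d and Cd3g were well above background on the Lamtor1-deficient array alone, at least 4.35-fold and 1.79-fold higher there than in M2. The part of these cells in the values below was not tested.

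NRF2, encoded by Nfe2l2, is a transcription factor that KEAP1 binds and marks for degradation in unstressed cells. When oxidants or electrophiles modify KEAP1, NRF2 accumulates, pairs with a small MAF protein and binds antioxidant response elements (AREs) in the promoters of detoxifying genes. Its control lies mostly at the protein level, so the Nfe2l2 message alone does not report its activity. The target enzymes make the tripeptide glutathione, reduce it again after use, run the parallel thioredoxin and peroxiredoxin cycle and supply the NADPH on which both cycles draw.

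The members' promoters were searched because an ARE is the element through which NRF2 acts. RefSeq promoter windows on GRCm38.p6, reaching 250 bases before and 50 after each start site, were found for 8 of the 10 members, not for Gclc and Gsr, and were searched on both strands for the ARE core TGACNNNGC. This core lay in the window of 6 of the 8 members, Nfe2l2, Srxn1, Gclm, Prdx1, Txnrd1 and G6pdx, against 14.0% of all 27025 genes and 12.4% of all 32851 windows in the table. A second motif, TGATGNAA, the core of the amino acid response element, lay in none of the 8 members' windows, against 4.51% of all genes. These matches describe letters in a window and say nothing of binding. The site in Srxn1 lay after the start site. The other 5 are shown with up to 15 bases on either side, 5′ to 3′ on the gene's strand, with the match in capitals. For Gclm, Prdx1, Txnrd1 and G6pdx the core reads on the opposite strand, so its reverse complement is the part in capitals.
Nfe2l2, chr2:75704880-75704913, minus strand, from 240 to 232 bases before the start site: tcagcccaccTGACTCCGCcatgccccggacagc
Gclm, chr3:122245408-122245446, plus strand, from 134 to 126 bases before the start site: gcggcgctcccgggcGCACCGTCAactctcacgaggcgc
Prdx1, chr4:116685451-116685489, plus strand, from 133 to 125 bases before the start site: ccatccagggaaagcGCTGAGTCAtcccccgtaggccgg
Txnrd1, chr10:82859099-82859137, plus strand, from 92 to 84 bases before the start site: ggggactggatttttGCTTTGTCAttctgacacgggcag
G6pdx, chrX:74428914-74428952, minus strand, from 57 to 49 bases before the start site: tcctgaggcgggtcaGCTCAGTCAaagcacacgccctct

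The 250 bases before the Gclm start, chr3:122245307-122245556 on the plus strand of GRCm38.p6, are shown whole because Gclm had the largest difference of the 10 genes on loss of Lamtor1. They were 78.4% G or C.
Gclm promoter: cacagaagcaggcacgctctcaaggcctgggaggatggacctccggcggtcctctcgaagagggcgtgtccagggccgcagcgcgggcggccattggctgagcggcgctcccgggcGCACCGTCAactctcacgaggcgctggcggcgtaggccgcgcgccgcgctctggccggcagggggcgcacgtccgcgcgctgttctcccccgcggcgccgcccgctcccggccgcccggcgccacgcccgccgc

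The sensor pair came first. The Nfe2l2 probe gave 6178% of the 75th percentile in M2, 6387% in Lamtor1-deficient, 4152% in Torin1-treated and 4926% in M1 cells. It was thus 1.49-fold lower with Torin1 than in M2, a log2 ratio of -0.57, and 1.54-fold lower with Torin1 than with Lamtor1 loss. The Lamtor1-deficient and M2 arrays differed by less than the technical SD on this scale, though their log2 ratio was -0.16 with quantile normalization. Keap1 gave 1491% in M2, 1578% in Lamtor1-deficient, 1475% in Torin1-treated and 1552% in M1 cells, and these 4 values spanned 0.10 on the log2 scale. For this repressor of NRF2 the arrays thus lay close together on the 75th-percentile scale, though not with a shift to the array median, where M1 over M2 was -0.76.

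Glutathione synthesis is run by glutamate-cysteine ligase, made of a catalytic subunit, Gclc, and a modifier subunit, Gclm, which raises the catalytic subunit's efficiency. Gclm is read by a single 60-base probe whose annotated span on mm9, chr3:121962174-121964809, is 2636 bases long, so the alignment of the probe is split across an intron.
Gclm probe: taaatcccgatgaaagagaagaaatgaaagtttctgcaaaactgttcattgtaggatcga
Its signal was 192.0% of the 75th percentile in M2, 72.3% in Lamtor1-deficient, 215.4% in Torin1-treated and 198.9% in M1 cells. On this scale the Lamtor1-deficient array stood alone and the other 3 arrays lay close to each other, though with a shift to the array median the log2 ratio of M1 over M2 was -0.77. Gclm was 2.66-fold lower with Lamtor1 loss than in M2, a log2 ratio of -1.41, and 1.12-fold higher with Torin1 than in M2. Torin1 over Lamtor1-deficient was 2.98-fold for this gene, which placed it at percentile 96.1 of the genes well above background on both arrays.

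Gclc gave 697.3% in M2, 447.4% in Lamtor1-deficient, 810.5% in Torin1-treated and 339.6% in M1 cells. The catalytic subunit was therefore 1.56-fold lower with Lamtor1 loss, the same direction as its partner but a smaller difference, and 1.16-fold higher with Torin1. In M1 the 2 subunits parted: Gclc was 2.05-fold lower than in M2, whereas Gclm was 1.04-fold higher, within the technical SD.

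Gsr, glutathione reductase, returns oxidised glutathione to its reduced form with NADPH. Its brighter probe gave 2250% in M2, 1722% in Lamtor1-deficient, 2916% in Torin1-treated and 3254% in M1 cells. The second probe gave 810.1%, 580.9%, 925.5% and 1088% in that order. On this scale both probes put the arrays in the same order, M1 highest, then Torin1, M2 and Lamtor1-deficient, but with a shift to the array median the brighter probe's M1 over M2 was -0.29 and M1 was no longer highest. The log2 ratio of Lamtor1-deficient over M2 was -0.39 with the first probe and -0.48 with the second, and that of Torin1 over M2 was 0.37 and 0.19.

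In the thioredoxin cycle, peroxiredoxin 1 (Prdx1) reduces peroxides, thioredoxin restores it, thioredoxin reductase 1 (Txnrd1) recharges thioredoxin from NADPH, and sulfiredoxin (Srxn1) rescues peroxiredoxin that has been over-oxidised. The brighter Prdx1 probe gave 29121% in M2, 18169% in Lamtor1-deficient, 33809% in Torin1-treated and 82889% in M1 cells. The second probe gave 1751%, 1167%, 2010% and 5958%. Both showed the M1 array far above the rest and the Lamtor1-deficient array lowest. In M1 the ratio to M2 was 2.85-fold by the first probe and 3.40-fold by the second, and the log2 ratio of Lamtor1-deficient over M2 was -0.68 and -0.59. No spot on the arrays was marked as saturated.

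Txnrd1 gave 3874% in M2, 3752% in Lamtor1-deficient, 5093% in Torin1-treated and 3420% in M1 cells. Srxn1 gave 4277%, 4044%, 6298% and 3059%. In both genes the Torin1 array was highest and M1 lowest, and on this scale the Lamtor1-deficient array lay within the technical SD of M2. With quantile normalization it lay beyond that SD, at log2 ratios of -0.24 for Txnrd1 and -0.28 for Srxn1. Against M2, Torin1 gave log2 ratios of 0.39 for Txnrd1 and 0.56 for Srxn1, the latter the largest positive difference of any member with Torin1.

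Nqo1, a quinone reductase and one of the most used NRF2 targets, was the dimmest of the probes, with processed signals between 60.7 and 200.6. On the normalized scale it gave 33.7% in M2, 29.8% in Lamtor1-deficient, 34.0% in Torin1-treated and 21.2% in M1 cells. The M1 array was lowest, 1.59-fold below M2 with a log2 ratio of -0.67, which shrank to -0.04 with normexp background correction.

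G6pdx encodes glucose-6-phosphate dehydrogenase, the entry enzyme of the pentose phosphate pathway and a main source of NADPH. It gave 7191% in M2, 4919% in Lamtor1-deficient, 3412% in Torin1-treated and 5533% in M1 cells. M2 was the highest and Torin1 the lowest, 2.11-fold below M2 with a log2 ratio of -1.08, which was -0.99 and short of 2-fold when the percentile was taken over probes detected on all arrays. With Lamtor1 loss the gene was 1.46-fold lower than in M2, so both conditions lay below M2 and Torin1 lay further below it.

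**Figure D1:**
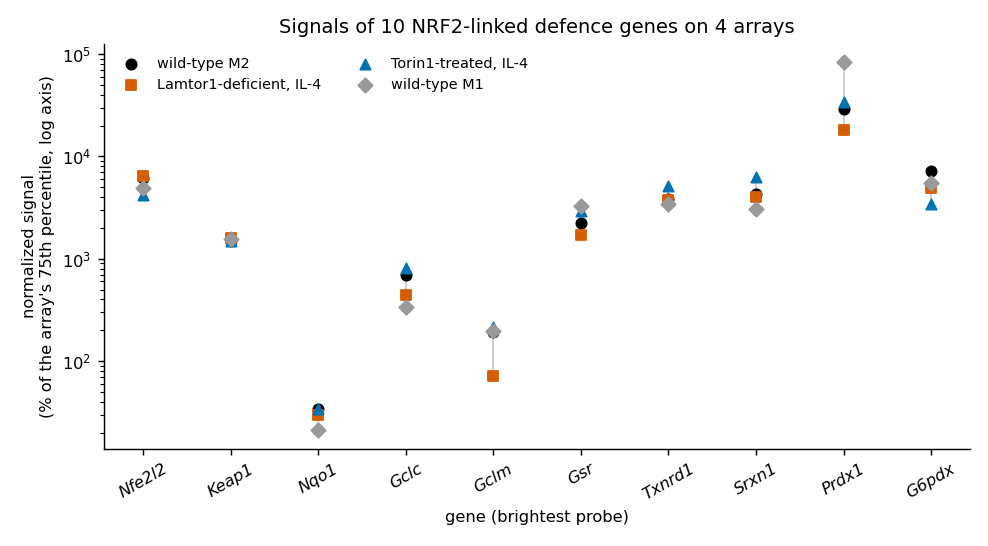
Normalized signal of the brightest probe of each gene on the 4 arrays, in percent of the array's 75th percentile on a log axis; each symbol is 1 array and the grey line joins the lowest and highest. Symbols are to be compared within a gene only. The Lamtor1-deficient square sits apart for Gclm at 72.3%, and the M1 diamond for Prdx1 at 82889%.

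Counted by the study's 2-fold threshold, few members passed in any comparison. With Lamtor1 loss, 0 of 10 were higher and 1 was lower, Gclm, where 7.93% of the 13439 genes well above background on both arrays were higher and 7.49% lower. With Torin1, 0 were higher and 1 was lower, G6pdx, against 11.2% and 13.4% of 13479 genes. In M1, 1 was higher, Prdx1, and 1 lower, Gclc, against 24.3% and 25.8% of 12795 genes. With quantile normalization Gclc, at -0.96, fell short of 2-fold in M1 and Nqo1, at -1.05, passed it. Torin1 over Lamtor1-deficient gave 1 higher, Gclm, and 0 lower, against 8.82% and 13.2% of 13485 genes. With 10 genes these counts are near the background shares or below them.

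The median log2 ratio of the members over M2 was -0.28 with Lamtor1 loss, beside 0.09 over all genes well above background on both arrays. It was 0.19 with Torin1, beside 0.00082 over all genes, and -0.25 in M1, beside 0.05. With a shift to the array median, the members' median was -0.06 with Torin1, beside -0.25 over all genes. In M1 it was then -1.07, beside -0.77. All 10 members lay below the median of all genes in the Lamtor1-deficient comparison, though Keap1 and Nfe2l2 did so by only 0.013 and 0.05. With Torin1, 7 members lay above the median of all genes and 3 below, Nfe2l2, Keap1 and G6pdx.

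**Figure D2:**
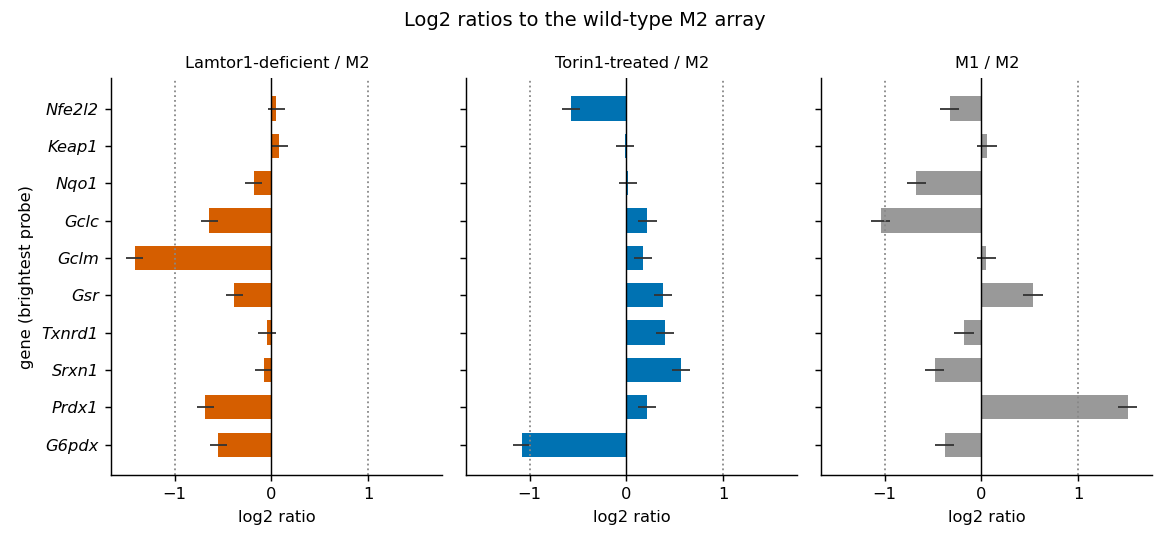
Log2 ratio to the wild-type M2 array for the brightest probe of each gene, in 3 panels for Lamtor1-deficient, Torin1-treated and M1 cells; all 3 panels share the M2 array. Error bars are 1 technical SD from probes printed repeatedly, 0.09 to 0.10, and dotted lines mark 2-fold. Gclm passes 2-fold with Lamtor1 loss, G6pdx with Torin1, and Prdx1 and Gclc in M1.

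Torin1 and Lamtor1 loss, which both bear on mTOR complex 1, were set against each other without the M2 array. On the 3 arrays of IL-4-stimulated cells, the same 7 genes, Nqo1, Gclc, Gclm, Gsr, Txnrd1, Srxn1 and Prdx1, were lowest with Lamtor1 loss and highest with Torin1 on the 75th-percentile scale, but the sign of Torin1 over M2 turned for Nqo1, Gclc, Gclm and Prdx1 under a shift to the array median, for Nqo1 and Prdx1 under quantile normalization and for Nqo1 under normexp, and that of Lamtor1-deficient over M2 turned for Txnrd1 under the median shift. Nfe2l2 and Keap1 were highest with Lamtor1 loss and lowest with Torin1 on that scale, but the sign of Lamtor1-deficient over M2 turned for both under quantile normalization and for Nfe2l2 with the percentile over detected probes, and that of Torin1 over M2 turned for Keap1 under both of these. G6pdx was highest in M2 and lowest with Torin1. The log2 ratio of Torin1 over Lamtor1-deficient was 1.58 for Gclm, 0.90 for Prdx1, 0.86 for Gclc, 0.76 for Gsr, 0.64 for Srxn1 and 0.44 for Txnrd1. It was -0.62 for Nfe2l2 and -0.53 for G6pdx. These 8 genes kept their direction under every scaling and background setting tried, while Nqo1 at 0.19 turned to -0.12 with a shift to the array median and Keap1 at -0.10 turned to 0.14 with quantile normalization. The median over the members was 0.54, beside -0.11 over all genes well above background on both arrays.

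**Figure D3:**
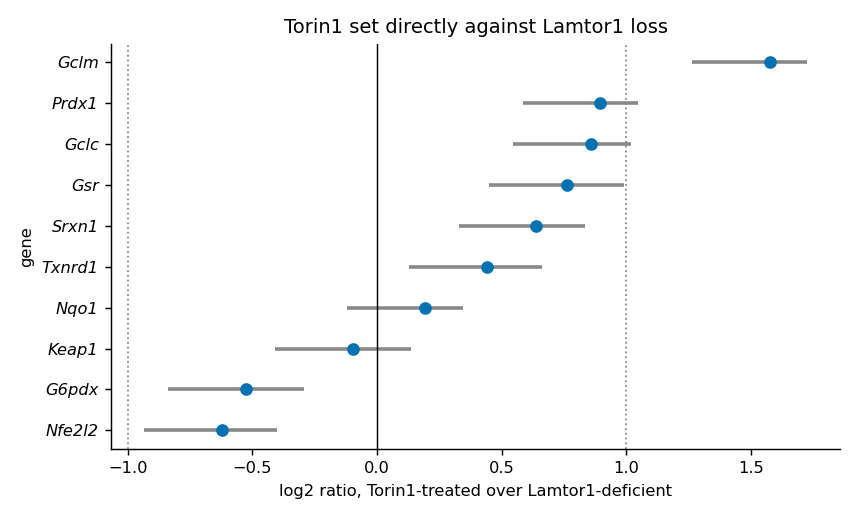
Log2 ratio of Torin1-treated over Lamtor1-deficient cells for the brightest probe of each gene; points are the 75th-percentile scaling, grey lines the lowest and highest value over the other scaling, background, floor, outlier and probe settings, and dotted lines mark 2-fold. Gclm lies highest at 1.58 and stays above 1.26, and the lines of Nqo1 and Keap1 cross 0.

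The scale between arrays mattered most for M1. A shift to the array median in place of the 75th percentile lowered the median of all genes by 0.82 in M1 over M2 and by 0.25 in Torin1 over M2. The M1 log2 ratios of Keap1, Gclm and Gsr, 0.06, 0.05 and 0.53, then became -0.76, -0.77 and -0.29, and the number of members at least 2-fold lower in M1 went from 1 to 6, where the share of all genes measured went from 25.8% to 44.2%. With Torin1, the small positive values of Gclc, Gclm, Nqo1 and Prdx1 turned negative in the same way, to -0.03, -0.08, -0.24 and -0.03. With quantile normalization those of Prdx1 and Nqo1 were -0.30 and -0.06. Prdx1 in M1 stayed positive under every setting, between 0.68 and 1.64, but lost 2-fold under both the median shift and quantile normalization. Gclm with Lamtor1 loss stayed between -1.48 and -1.26.

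By position in the 3 log2 ratios to M2, the genes with patterns closest to a member were taken for the 3 members farthest from 0, by Euclidean distance over the 12404 genes detected above background on every array. Nearest to Gclm were Slc16a10 and Col11a2, at distances of 0.19 and 0.21. Nearest to Prdx1 were Tctex1d4, Fbxw25 and Nkd2, at 0.10, 0.17 and 0.17, and nearest to G6pdx were Nsmaf, Maml1 and Cyp2d11, at 0.07, 0.08 and 0.15. None of the members was among them. These names depended on the scale: with quantile normalization 0 of the 3 nearest to Prdx1 and 0 of the 3 nearest to G6pdx stayed among the nearest, and with normexp 0 of the 3 nearest to Prdx1 and 2 of the 3 nearest to G6pdx did. The genes nearest to Gclm changed under both settings as well.

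The members were then placed among 100 other redox genes in 6 lists. Of these, 96 were well above background on both arrays for Lamtor1 loss, with 12 at least 2-fold higher and 12 lower, beside 7.93% and 7.49% of all genes measured. With Torin1 it was 11 higher and 17 lower of 93, beside 11.2% and 13.4%. In M1 it was 23 higher and 31 lower of 92, beside 24.3% and 25.8%, and in Torin1 over Lamtor1-deficient 8 higher and 16 lower of 93, beside 8.82% and 13.2%. The medians over these measured genes were 0.23, -0.04, -0.22 and -0.31, beside -0.28, 0.19, -0.25 and 0.54 for the members. Counted over all 100 genes whatever their signal, 12 were higher and 14 lower with Lamtor1 loss, 12 and 21 with Torin1, 25 and 35 in M1, and 9 and 19 in Torin1 over Lamtor1-deficient. Of all 21884 genes whatever their signal, 8.97% were higher and 8.34% lower with Lamtor1 loss, and 13.6% and 12% with Torin1. In M1 these shares were 29.8% and 19.9%, and in Torin1 over Lamtor1-deficient 11.7% and 12%.

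Among 9 partners and regulators of NRF2, Maff, a small MAF protein that pairs with NRF2, had the largest ratios. It gave 49.9% of the 75th percentile in M2, 738.7% in Lamtor1-deficient, 405.7% in Torin1-treated and 1094% in M1 cells. It was thus 14.8-fold higher with Lamtor1 loss, 8.14-fold with Torin1 and 21.9-fold in M1. In M1, 5 of the 8 measured partners were at least 2-fold higher and none lower, beside 24.3% and 25.8% of all genes measured. Their median log2 ratio was 1.53, where the members' median was -0.25. The partner left out there, Nfe2, a relative of NRF2, was not well above background in M1 and at least 2.85-fold lower than in M2. These M1 values are on the 75th-percentile scale. A shift to the array median lowers each M1 over M2 log2 ratio by 0.82, so fewer partners would pass 2-fold. Nfe2 was also 3.44-fold lower with Torin1 than with Lamtor1 loss.

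Of 18 measured NRF2 target enzymes and transporters outside the members, 6 were at least 2-fold lower and 1 higher with Lamtor1 loss, where 7.49% and 7.93% of all genes measured were, and 5 lower and 3 higher with Torin1, where 13.4% and 11.2% were. Ephx1, microsomal epoxide hydrolase, gave 11456% in M2, 2696% in Lamtor1-deficient, 7941% in Torin1-treated and 153.5% in M1 cells. It followed the members' order on the IL-4 arrays in part, lowest with Lamtor1 loss, but M2 was its highest. The log2 ratio of M1 over M2 was -6.22 by this probe and -2.97 by the second Ephx1 probe, and that of Torin1 over Lamtor1-deficient was 1.56 and 0.80. Slc7a11, the cystine carrier that feeds glutathione synthesis, was above M2 with Lamtor1 loss, where Gclm was below it. Its signal was 24.4% in M2, 66.5% with Lamtor1 loss and 165.9% with Torin1, or 2.73-fold and 6.80-fold above M2. In M1 its probe was not well above background, so that M1 was at least 3.72-fold lower than M2, measured against the lowest signal well above background on the M1 array. Osgin1, an oxidative stress-induced growth inhibitor, was 4.13-fold lower with Lamtor1 loss and 3.58-fold lower with Torin1. Hmox1, heme oxygenase, was 8.77-fold higher in M1 than in M2, where Nqo1 and Gclc were lower. Ptgr1, a prostaglandin reductase, was 3.43-fold lower with Torin1 than with Lamtor1 loss.

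In the glutathione list, 6 of 29 measured genes were at least 2-fold higher and 3 lower with Lamtor1 loss, beside 7.93% and 7.49% of all genes measured, with a median of 0.43 beside -0.28 for the members. Gstm1, a mu-class glutathione transferase, was 7.04-fold higher with Lamtor1 loss and 5.05-fold higher with Torin1, by a probe annotated to chromosome 5 of mm9. Its other probe, annotated to chromosome 3, gave 6.09-fold and 6.37-fold, the reverse order, and either probe can share target sequence with close relatives. Gsta3, an alpha-class transferase, gave 28.7% in M2, 6.07% with Lamtor1 loss and 42.5% with Torin1, 4.73-fold below M2 with Lamtor1 loss and 7.01-fold higher with Torin1 than with Lamtor1 loss. The second Gsta3 probe gave smaller differences, 2.33-fold and 3.95-fold. Glrx, glutaredoxin, which removes glutathione from proteins, was 2.61-fold lower with Lamtor1 loss, 19.2-fold lower with Torin1 and 13.1-fold higher in M1. Chac1, which degrades glutathione, was 19.0-fold lower with Torin1 than with Lamtor1 loss, the opposite side from Gclm. Gstz1, a zeta-class transferase, had a log2 ratio of -3.42 in M1.

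In the thioredoxin list, Txn1, thioredoxin itself and the substrate of Txnrd1, gave 8719% in M2, 36261% in Lamtor1-deficient, 13849% in Torin1-treated and 25394% in M1 cells. It was 4.16-fold higher with Lamtor1 loss, where Txnrd1 differed by less than the technical SD on this scale and Prdx1 was lower. Txnrd3 was 2.06-fold higher with Lamtor1 loss and 3.15-fold higher with Torin1. Among the sestrins, which are stress-induced and act on mTOR complex 1 and peroxiredoxins, Sesn1 was 3.88-fold lower with Torin1 and 19.6-fold lower in M1, and Sesn3 was 2.19-fold lower with Lamtor1 loss and 13.2-fold higher in M1. With Torin1 Sesn3 was not well above background and at least 5.60-fold below M2. Msrb2, a methionine sulfoxide reductase, was 3.98-fold lower with Torin1 than with Lamtor1 loss. Of the 18 genes measured in that last comparison, 4 were at least 2-fold lower and 0 higher, and 15 lay below 0, where 13.2% of all genes measured were 2-fold lower, 8.82% higher and 55.9% below 0.

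Of the 11 other genes of NADPH supply, 0 passed 2-fold with Lamtor1 loss, where 7.93% of all genes measured were higher and 7.49% lower, and 2 were lower with Torin1, where 13.4% were, among them Idh1, cytosolic isocitrate dehydrogenase, at 2.59-fold. In M1, 7 of 11 were at least 2-fold lower and 0 higher, beside 25.8% and 24.3% of all genes measured, with a median log2 ratio of -1.58, whereas G6pdx was 1.30-fold lower. Idh1 was again lowest, 14.2-fold below M2.

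Among 10 genes that make or remove superoxide, Cybb, the catalytic subunit of the phagocyte NADPH oxidase, gave 937.3% in M2, 455.9% with Lamtor1 loss and 4324% with Torin1. It was 9.48-fold higher with Torin1 than with Lamtor1 loss, on the side of the 7 members named above. Ncf1, another subunit of that oxidase, was 2.34-fold lower with Lamtor1 loss and 2.28-fold lower with Torin1. Sod2, the mitochondrial superoxide dismutase, was 9.74-fold higher in M1, and Sod3, the extracellular one, was 6.91-fold lower in M1 and 3.21-fold lower with Torin1. Sod3 was also 5.20-fold lower with Torin1 than with Lamtor1 loss.

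**Figure D4:**
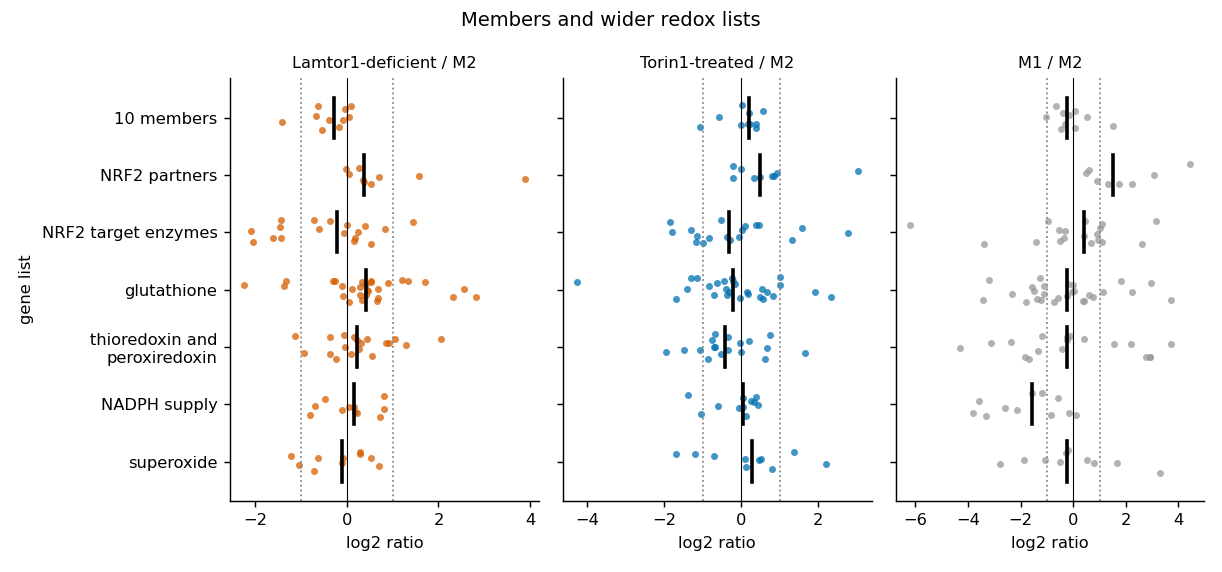
Log2 ratio to M2 of the 10 members and of the 6 other redox lists, 1 point for each gene well above background on both arrays of the panel; black bars are list medians, dotted lines mark 2-fold, and the scatter within a row is for display only. The members' points lie mostly within 2-fold, and the NADPH supply list in M1 has a median of -1.58.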

How the data were processed

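Total RNA of 4 cultures was labelled with Cy3 and hybridised to 1 array each. The authors deposited Agilent Feature Extraction files, whose processed signal is an intensity after background subtraction; the submitters' notes name version 10.5.1.1 and the file headers 10.7.3.1, and the arrays were on 1 slide scanned on 1 day. The deposited series table held the same intensities within 0.497%.

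Signals below 1 were set to 1 and each array was divided by its 75th percentile, as in the study's methods. Beyond these methods, spots marked as outliers and control spots were left out and repeated spots averaged before scaling, and log2 was taken after it. A gene took its brightest probe, and the threshold was 2-fold. Array names were matched to RefSeq symbols. No p-value was computed. The code was tested on simulated data. Python 3.11.15 with numpy 2.4.6 and pandas 2.3.3, and R 4.3.3 with limma 3.58.1 for normexp with an offset of 50, were used.

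The members and lists were chosen with earlier results of these data known. Text names all 10 members, the largest difference past 2-fold in each direction, list and comparison among genes well above background on both arrays, the 3 genes nearest to each of the 3 members farthest from 0, and Lamtor1. Among markers, Elane was left out because its spots were outliers on an array, and Ly6g was not found under that name. A nearest gene and a marker are not reported here. Alternatives were another scaling (array median, quantile, detected probes), normexp, filters on dim probes, a floor, outliers kept, other probe rules, thresholds of 1.5-fold and 3-fold, and the series table. Those for the counts in Torin1 over Lamtor1-deficient, for the other redox genes named and for the nearest genes were added after seeing the data.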

Additional observations from a re-analysis of the deposited data

How the results depend on the processing

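No paired analysis was possible because each condition had 1 array. Over 8 other scaling, background, floor, outlier and probe settings, 242 of the members' log2 ratios moved by less than the technical SD and 78 by more, and no ratio past 2-fold changed sign. The same held for the other redox genes named, 212 and 76, again with no ratio past 2-fold changing sign.

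Counts at 2-fold moved by over 1.5 times as follows. Here and in the next paragraph, other redox genes are counted over all 100 whatever their signal. The shares in brackets are over genes well above background on both arrays, so the 2 sets are unlike. With the median shift, members in M1 became 0 higher and 6 lower, other redox genes in M1 14 higher and 54 lower (all genes measured: 10.6% and 44.2%), and other redox genes in Torin1 over Lamtor1-deficient 30 lower (22.2%). With quantile normalization, 2 members were lower with Lamtor1 loss (all genes 7.58%), 0 higher in M1 (19.8%) and 2 higher in Torin1 over Lamtor1-deficient (9.08%). With the percentile over probes detected on all arrays, 0 members were lower with Torin1, where G6pdx had a log2 ratio of -0.99 (all genes 11.8%), and 3 were higher in Torin1 over Lamtor1-deficient (11.4%).

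At 1.5-fold, 3 members were lower with Lamtor1 loss (all genes 13.8%), 2 were lower in M1 (33.8%), and 5 were higher and 1 lower in Torin1 over Lamtor1-deficient (18.3% and 26.7%). Of the other redox genes, 24 were then higher with Lamtor1 loss (all genes 17.1%). With Torin1, 21 were higher and 34 lower (22.6% and 23.7%). In Torin1 over Lamtor1-deficient, 18 were higher and 36 lower (18.3% and 26.7%). At 3-fold, 0 members passed in any comparison (all genes higher and lower: 3.52% and 3.71% with Lamtor1 loss, 4.77% and 6.59% with Torin1, 13.2% and 16.9% in M1, 3.85% and 5.31% in Torin1 over Lamtor1-deficient), and other redox genes were 6 higher and 5 lower with Lamtor1 loss, 6 and 9 with Torin1, 21 lower in M1, and 2 higher and 11 lower in Torin1 over Lamtor1-deficient. The median shift also moved the share of higher genes among all 2-fold genes from 48.4% to 19.4% in M1, from 45.6% to 28.7% with Torin1 and from 40.0% to 20.5% in Torin1 over Lamtor1-deficient. The cause was not tested. With 1 array a condition, no setting measures the spread between cultures, and Nqo1 in M1, the dimmest value, ranged from -1.49 to -0.04, the latter with normexp.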
